A study of Mus musculus with 33 samples.

Results

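The 9 members of the Sonic hedgehog pathway, chosen by name, were followed through cone and rod directed culture of mouse retinal progenitor cells. They were the ligand Shh, the receptors and co-receptors Ptch1, Smo, Boc and Cdon, the transcription factors Gli1, Gli2 and Gli3, and the inhibitor Hhip. All 9 were found by symbol among the 47729 genes of the count tables, and all 9 passed the filter on low counts that left 18150 genes tested. The level of Cdon was below that of rod cells in every cone library of the same day, from day 0 to day 35. Boc rose from 3.06 to 8.62 CPM at day 0 to 31.9 to 132 CPM at day 35. Over the same culture Ptch1, Gli3 and Hhip rose in both conditions, while Shh and Gli1 ended at or near the limit of detection. CPM is a gene's count scaled to the TMM-normalised size of its library.

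The RNA came from retinal progenitor cells of C57BL/6J mice, taken at embryonic day 14, and was sequenced in 33 libraries. Untreated cells were sampled at day 0. Cone primed (day 0) and cone induced cells (days 5, 12, 21 and 35) were labelled as treated with COCO protein, which is secreted and blocks ligands of the BMP, Wnt and TGF-beta families. Rod primed (day 0) and rod induced cells at the same days were labelled as treated with taurine and retinoic acid. Each of the 11 groups had 3 libraries. The labels do not say that these came from separate cultures or animals, so p-values measure the spread between libraries, which may be technical.

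Sonic hedgehog is a secreted, lipid-modified protein. It binds the receptor Patched 1, with the help of the co-receptors Boc and Cdon, and thereby frees Smoothened, which turns the Gli proteins into activators and prevents their processing into repressors. Gli1, Ptch1 and Hhip are transcribed in response in most tissues and serve as readouts of the pathway, the latter 2 as parts of a negative feedback loop. In the developing retina the ligand is made by ganglion cells, and the neighbouring progenitors divide in response.

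Counts in genes ran from 7511837 to 19166442 per library, and 3 counts were worth 0.174 to 0.407 CPM. A count of 0 allows a true value of up to these 3 counts, a limit for counting error only. The summed level of 12 retinal progenitor markers ran from 1424 to 1802 CPM at day 0 and from 811 to 1474 CPM at day 35. All 12 were thus detected at day 0, but by day 35 edgeR called 8 of them lower in cone and 6 in rod cells, 2 higher in each, and Fgf15 was at 0 in cone cells. Of all genes, 57.7% in cone and 55.6% in rod cells were called in either direction. The summed level of 11 photoreceptor markers ran from 510 to 1142 CPM at day 0 and from 8.28 to 43.5 CPM at day 35. Some libraries stood apart from their group. Rod day 12 replicate 2 had a photoreceptor sum of 1417 CPM against 77.1 and 169 CPM in the other rod day 12 libraries, and cone day 21 replicate 1 had 18.5 CPM against 160 and 140 CPM. Cone day 35 replicate 2 had a lower sum of mesenchyme markers than the rest of its group, with values given beside Boc. In these bulk samples, fewer cells of a type and less RNA per cell cannot be told apart.

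Per kilobase of annotated exon, Cdon stood highest of the 9, with a mean level of 45.2 CPM per kb over the 33 libraries. Smo followed with 15.2, Gli3 with 8.75, Boc with 7.01, Ptch1 with 5.32 and Gli2 with 2.39 CPM per kb. Hhip (0.235), Shh (0.218) and Gli1 (0.0460 CPM per kb) lay far below. Gli1 exceeded 3 counts in 8 of 33 libraries and Shh in 19, whereas Gli2, Gli3, Ptch1, Smo, Boc and Cdon did so in 33.

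**Figure D1:**
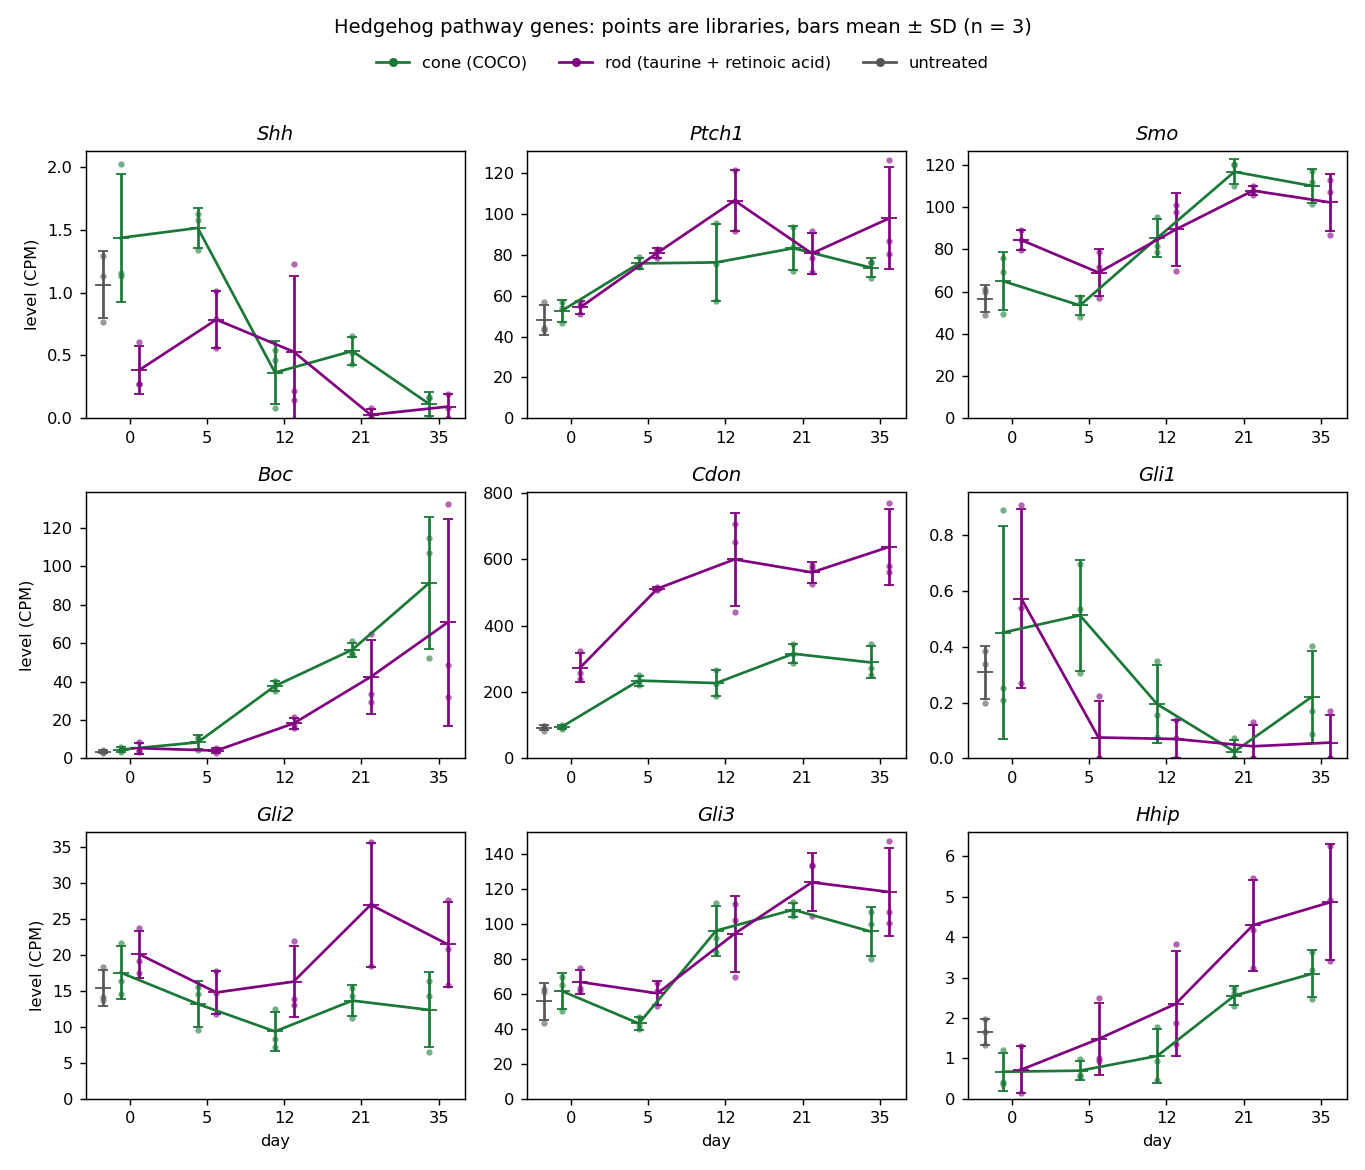
Level (CPM, linear axis from 0) of the 9 genes by day (evenly spaced, not to scale) in cone, rod and untreated cells; points are libraries and bars the mean ± SD of 3 libraries, cut off at 0 where they would pass below it. Cdon libraries of the rod condition lie above all cone libraries of the same day, Boc climbs in both conditions, and Shh and Gli1 reach no more than 2.02 and 0.907 CPM.

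The ligand gene Shh (ENSMUSG00000002633) lies on chromosome 5, 28456815 to 28467256 of build GRCm38, on the minus strand. It had 0 to 28 counts per library. An annotated antisense gene and a lincRNA overlap it on the other strand, and reads of these cannot be told apart if strand was not used in counting, which is not given in the sources used here. In untreated cells its level was 0.768, 1.13 and 1.29 CPM, in cone primed cells 1.13, 2.02 and 1.15 CPM, and in rod primed cells 0.271, 0.605 and 0.269 CPM. All 3 rod primed libraries lay below the other 6 of day 0. The difference between cone and rod primed cells had a log2 fold change of 1.89 and an adjusted p of 0.0931 by edgeR's quasi-likelihood test, so it was not called. It was called with voom quality weights (adjusted p 0.0136) and in an edgeR model of those 6 libraries alone (0.0318).

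At day 5 Shh stood at 1.34, 1.58 and 1.63 CPM in cone cells and at 1.01, 0.786 and 0.555 CPM in rod cells. By day 35 the counts were 0, 2 and 2 in cone cells and 0, 1 and 3 in rod cells. Every library of day 35 was thus at or under 3 counts. The cone level at day 35 was 0.0742 times that of cone primed cells by summed counts (4 against 45 counts, 95% counting interval 0.0194 to 0.204), and the fall was called by edgeR (adjusted p 0.000299). In rod cells the ratio was 0.261 (4 against 11 counts, interval 0.0606 to 0.881), and edgeR did not call it (adjusted p 0.0813, or 0.0407 without rod day 35 replicate 3). At day 21 Shh had 5, 5 and 7 counts in cone and 0, 1 and 0 in rod cells, a ratio of 21.4 with an interval of 3.35 to 893. That difference was called by edgeR with an adjusted p of 0.0156, or 0.0557 without rod day 21 replicate 1 and 0.0829 without replicate 3. Shh was not called over the mean of days 5 to 35 (log2 fold change 1.13 ± 0.45 SE, adjusted p 0.0661 by edgeR, and 0.00643 without rod day 12 replicate 2, where Shh was 1.23 CPM). It was called in 5 of the 24 fits that left out 1 library, by voom with quality weights (0.00136), by DESeq2 (0.0467) and with the replicate block (0.0483).

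The sum of the 12 ganglion cell markers, like Shh, was lower at day 35 than at day 0, but did not move in step with it. Their summed level ran from 167 to 863 CPM at day 0, from 137 to 238 CPM at day 5 and from 72.1 to 141 CPM at day 35. Among day 0 groups it was 333 to 863 CPM in cone primed and 167 to 387 CPM in rod primed cells. By day 5 the mean sum had gone from 543 to 197 CPM in cone cells, with 7 of 12 markers called lower (22.3% of all genes called), and from 244 to 158 CPM in rod cells. Mean Shh over that step was 1.44 and 1.51 CPM in cone and 0.382 and 0.784 CPM in rod cells. At day 21, when Shh was higher in cone cells, their mean sum was 63.2 CPM there, against 76.0 CPM in rod cells. Cone over rod, the median log2 fold change of the 12 was 1.27 for day 0, 0.77 for day 5 and 0.87 for day 21. It was -0.42 for day 12 and 0.34 for day 35. Shh had the same sign each time, but edgeR called it for day 21 only. For that day 2 of the 12 were called higher and 1 lower in cone cells, beside 9% of all genes. Averaged across days 5 to 35 the median was 0.63, with 4 called higher and 1 lower, beside 27.8% of all genes. By day 35 edgeR called 9 of the 12 lower in cone and 10 lower in rod cells, with 1 and 2 called higher, beside 57.7% and 55.6% of all genes called in either direction. At day 35 Pou4f2, Pou4f3 and Atoh7 were at 0 in all 3 cone libraries, and these and Sncg in all 3 rod libraries. The part of these cells in the fall of Shh was not tested.

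Ptch1 (ENSMUSG00000021466, chromosome 13, 63508328 to 63573598, minus strand) encodes the receptor that holds Smo inactive when no ligand is bound. It rose early in both conditions. Its level was 43.2 to 56.9 CPM in the 9 libraries of day 0 and 74.0 to 83.0 CPM in the 6 of day 5, with no overlap. The rise by day 5 was 1.44-fold in cone cells (adjusted p 0.0189 by edgeR, or 0.0504 and 0.0695 without cone primed replicate 2 or 3) and 1.49-fold in rod cells (0.0141, or 0.0611 without rod primed replicate 2).

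At days 12 and 35 rod cells stood higher on average, and at day 21 the conditions overlapped. Rod cells had Ptch1 at 106, 92.0 and 122 CPM at day 12 and 127, 80.5 and 86.9 CPM at day 35. Cone cells had 95.7, 75.7 and 57.6 CPM at day 12 and 68.5, 76.7 and 76.3 CPM at day 35. The groups overlapped at day 12 and lay apart at day 35, where the difference was not called by edgeR (adjusted p 0.0996). At day 21 cone cells had Ptch1 at 72.2 to 93.8 CPM and rod cells at 71.7 to 91.8 CPM (log2 fold change 0.05, adjusted p 0.904). At day 35 the rise over primed cells was 1.80-fold in rod cells (adjusted p 7.11e-05 by edgeR) and 1.40-fold in cone cells (0.0114, or 0.0913 without cone primed replicate 3). Averaged over days 5 to 35, Ptch1 was lower in cone cells by 0.24 ± 0.08 (SE) on the log2 scale, a 1.18-fold difference (adjusted p 0.0279). That call was lost without cone day 12 replicate 3 (0.0555), rod day 12 replicate 3 (0.0606), rod day 21 replicate 1 (0.0585) or rod day 35 replicate 1 (0.0649).

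Ptch1 and Hhip are shown with their upstream sequence because both are readouts of Gli activity that rose in both conditions, Hhip late and Ptch1 from day 5. RefSeq's table for GRCm38.p6 held an upstream sequence for 6 of the 9 genes. The Gli consensus GACCACCCA was searched on both strands of the 250 bases before each listed start and was found in 0 of the 6. It was present in 0.225% of the 32851 promoters in the table. Its core CCACCC occurred in Gli2, Gli3, Smo and Hhip and in 28.1% of all promoters. These matches describe letters and not binding. Capitals mark the core, which the Ptch1 window, chr13:63565736-63565985 on the minus strand and inside the annotated gene, does not hold. The Hhip window is chr8:80058009-80058258 on the minus strand.
Ptch1: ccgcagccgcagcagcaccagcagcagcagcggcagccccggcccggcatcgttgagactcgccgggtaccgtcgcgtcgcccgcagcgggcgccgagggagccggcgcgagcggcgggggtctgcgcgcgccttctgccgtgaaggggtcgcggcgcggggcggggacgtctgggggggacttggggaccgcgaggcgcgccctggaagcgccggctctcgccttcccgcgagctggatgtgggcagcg
Hhip: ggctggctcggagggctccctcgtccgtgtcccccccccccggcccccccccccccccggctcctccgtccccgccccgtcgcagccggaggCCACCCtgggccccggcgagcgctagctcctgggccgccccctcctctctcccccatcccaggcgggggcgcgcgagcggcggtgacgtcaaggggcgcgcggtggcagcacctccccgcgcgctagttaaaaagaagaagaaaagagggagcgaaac

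Hhip (ENSMUSG00000064325, chromosome 8, 79966115 to 80058006, minus strand) encodes a membrane protein that binds and sequesters hedgehog ligands. Its level was low and rose in both conditions. In cone primed cells it was 0.378, 1.21 and 0.419 CPM (3, 15 and 4 counts) and in rod primed cells 0.136, 1.31 and 0.718 CPM (1, 13 and 8 counts). At day 35 it was 2.47, 3.18 and 3.63 CPM in cone and 3.40, 4.93 and 6.26 CPM in rod cells. All day 35 libraries stood above all 9 of day 0, where untreated cells had 1.33 to 1.97 CPM. The rise over primed cells was 4.34-fold in cone cells (log2 fold change 2.12 ± 0.54, adjusted p 0.00150 by edgeR) and 6.41-fold in rod cells (2.68 ± 0.53, adjusted p 0.000125). Each of the 6 fits that left out 1 library kept both calls.

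Rod cells had more Hhip than cone cells over the mean of days 5 to 35. The difference was 0.91 ± 0.25 (SE) on the log2 scale, a 1.88-fold lower level in cone cells (adjusted p 0.00621 by edgeR). It was called in all 24 fits that left out 1 library, the highest adjusted p being 0.0250. At no single day was Hhip called by edgeR, and the groups overlapped at days 5, 12 and 35 but not at day 21.

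Smo (ENSMUSG00000001761, chromosome 6, 29735503 to 29761365, plus strand) encodes the membrane protein that passes the signal on to the Gli factors. It was higher in rod primed than in untreated cells, with 84.4, 79.6 and 89.3 CPM against 61.1, 49.1 and 59.8 CPM and no overlap. That 1.49-fold difference had an adjusted p of 0.0121 by edgeR, or 0.0614 without untreated replicate 2 and 0.0643 without rod primed replicate 3. From day 12 on, cone and rod libraries lay close together. At day 21 they stood at 120, 120 and 110 CPM in cone and at 110, 108 and 106 CPM in rod cells. The rise from cone primed cells (49.5 to 76.1 CPM) to cone day 35 (101 to 117 CPM) was 1.69-fold (adjusted p 7.87e-05). From rod primed cells to rod day 35 (86.8 to 113 CPM) it was not called (log2 fold change 0.28 ± 0.15, adjusted p 0.112). The cone minus rod difference in Smo over the mean of days 5 to 35, which includes the lower cone value of day 5 (-0.37), was -0.05 ± 0.07, with an adjusted p of 0.638 and a 95% interval of -0.20 to 0.09.

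Boc (ENSMUSG00000022687, chromosome 16, 44485045 to 44558897, minus strand) encodes a co-receptor that binds hedgehog ligands at the cell surface beside Ptch1. Its level rose stepwise with the day of culture. It was 3.06 to 4.48 CPM in untreated, 3.14 to 5.98 in cone primed and 3.22 to 8.62 CPM in rod primed cells. In cone cells it reached 11.0, 4.32 and 9.88 CPM at day 5, 40.1, 37.7 and 35.3 CPM at day 12, and 54.2, 54.6 and 60.9 CPM at day 21. At day 35 the cone libraries stood at 107, 52.2 and 115 CPM. Replicate 2 of that group lay just below the range of day 21, and the other two well above it.

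Boc rose in rod cells as well, with a lower mean than in cone cells at days 5, 12, 21 and 35. In both conditions edgeR called it over primed cells at day 12 but not at day 5. The rod libraries had 5.28, 2.79 and 4.17 CPM at day 5, 17.2, 15.8 and 21.6 CPM at day 12, 29.5, 64.6 and 33.3 CPM at day 21 and 48.4, 132 and 31.9 CPM at day 35. Replicate 2 held the highest value of the rod group at day 21 and of that at day 35. The rise from primed cells to day 35 was 19.8-fold in cone cells (log2 fold change 4.31 ± 0.48, adjusted p 1.81e-08 by edgeR) and 13.0-fold in rod cells (3.70 ± 0.47, adjusted p 2.13e-07). Boc, averaged over days 5 to 35, was 1.65-fold higher in cone cells (log2 fold change 0.72 ± 0.21, adjusted p 0.0105), and all 24 fits that left out 1 library kept that call. At single days it was not called. At day 12 the groups did not overlap, and the log2 fold change of 1.05 had an adjusted p of 0.110, or 0.0285 in a model of those 6 libraries alone. At day 35 the value was 0.37 (adjusted p 0.624), or 0.0432 without rod day 35 replicate 2.

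The 10 mesenchyme markers, among them Col1a1, Col1a2, Col3a1, Dcn, Lum, Postn, Pdgfrb, Twist1 and Foxc1, moved with Boc. Their summed level was 3.20 to 116 CPM in the libraries of day 0 and 390 to 4275 CPM at day 35. In cone day 35 cells the sums were 3298, 618 and 4275 CPM, and in rod day 35 cells 407, 932 and 390 CPM, in the same order as Boc. Within groups the 3 libraries had the same order for Boc and for this sum in 7 of 11 groups. For Gli2 this held in 5, for Gli3, Ptch1 and Smo in 4 each, for Gli1 in 3, for Cdon in 2, for Shh in 1 and for Hhip in 0. A rise in both conditions was not particular to mesenchyme markers. The summed level of 10 Muller glia markers went from 1001 to 2557 CPM at day 0 to 6227 to 8734 CPM at day 35. Of the 9 mesenchyme markers tested, 5 were called higher and 3 lower in cone cells across the mean of days, beside 27.8% of all genes. By day 35, 9 had risen in cone and 8 in rod cells, beside 57.7% and 55.6% of all genes called in either direction. In cone primed and cone day 5 cells Dcn was at 0. The part of these markers' cells in the level of Boc was not tested.

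**Figure D2:**
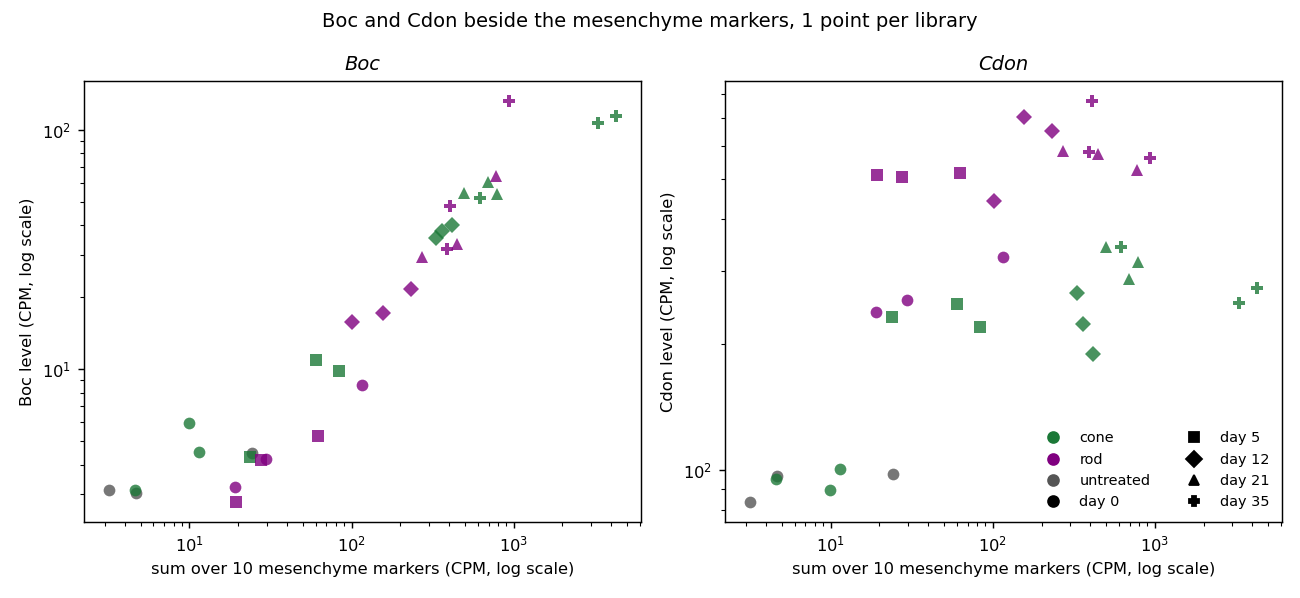
Level of Boc (left) and Cdon (right) against the summed level of 10 mesenchyme markers, both in CPM on log axes, with 1 point per library, colour for condition and shape for day. Boc libraries climb with the marker sum in cone and rod cells alike, whereas Cdon libraries of the rod condition lie above cone libraries of the same day.

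Cdon (ENSMUSG00000038119, chromosome 9, 35421128 to 35507652, plus strand) encodes the other co-receptor, a relative of Boc. It was the gene of the 9 that separated the conditions at every day. Rod primed cells had 256, 240 and 324 CPM, against 101, 89.3 and 94.8 CPM in cone primed and 97.9, 83.6 and 96.3 CPM in untreated cells. The 3 rod primed libraries thus stood above all 6 others, which overlapped each other. The rod primed level was 2.95-fold that of untreated cells (log2 fold change 1.56 ± 0.16, adjusted p 1.19e-07 by edgeR). Between cone primed and untreated cells the value was 0.04 (adjusted p 1.00), with a 95% interval of -0.28 to 0.35.

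Cdon then rose in both conditions by day 5. Cone cells had 250, 232 and 220 CPM and rod cells 516, 511 and 506 CPM at that day. These rises over primed cells were 2.47-fold (adjusted p 1.78e-06 by edgeR) and 1.87-fold (0.000199). The cone libraries of day 5 thus overlapped the range that rod primed cells had at day 0. At day 35 the levels were 251, 343 and 273 CPM in cone and 769, 562 and 579 CPM in rod cells, 3.05-fold and 2.33-fold above primed cells (adjusted p 1.94e-09 and 2.31e-07).

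The difference between cone and rod cells was 2.88-fold at day 0, 2.18-fold at day 5, 2.64-fold at day 12, 1.78-fold at day 21 and 2.20-fold at day 35, always lower in cone cells. The adjusted p by edgeR was 3.01e-07, 2.29e-05, 1.00e-06, 0.000783 and 1.37e-05. No group overlapped its counterpart at any of the 5 days, and every fit that left out 1 library, as well as all 7 count-based alternatives, kept the call at each day. For days 5 to 35 together the log2 fold change was -1.12 ± 0.08 (adjusted p 2.34e-11). Whether this difference changed from day to day was tested too, and edgeR made no call (adjusted p 0.151). Rod day 12 replicate 2 had the lowest Cdon of its group, 441 CPM against 705 and 652 CPM.

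The sums of the retinal progenitor, Muller glia, cell cycle and mesenchyme lists differed between primed groups in the direction of Cdon. The progenitor sum was lower in every cone library than in every rod library at each of the 5 days, with 1496 to 1596 against 1614 to 1802 CPM at day 0, 1075 to 1264 against 1285 to 1334 CPM at day 5 and 811 to 964 against 1001 to 1474 CPM at day 35. Of the 12 progenitor markers edgeR called 2 lower and 2 higher in cone primed against rod primed cells, with a median log2 fold change of -0.16. The share over all genes at day 0 was 7.27%. For the mean of days it called 6 lower and 1 higher in cone cells, beside 27.8% of all genes. The summed level of 10 Muller glia markers was 1093 to 1396 CPM in cone primed and 2130 to 2557 CPM in rod primed cells, and 7 of 10 were called lower in cone primed cells. The summed level of 10 cell cycle markers was 932 to 1596 and 1861 to 2348 CPM, with 4 of 10 called lower. For the mesenchyme markers it was 4.61 to 11.45 and 19.1 to 116 CPM, with 2 of the 9 tested called lower. At day 35 the mesenchyme sum was 618 to 4275 CPM in cone and 390 to 932 CPM in rod cells. Of the Muller glia markers 4 were called higher and 3 lower in cone cells across days 5 to 35, and at day 35 the sums overlapped, with 6718 to 7289 CPM in cone and 6227 to 8734 CPM in rod cells. Of the cell cycle markers 6 were called lower over the mean of days and 8 at day 5, where 9.28% of all genes were called. Their sums lay apart at day 5, with 609 to 818 CPM in cone and 1463 to 1653 CPM in rod cells, and at day 21, with 668 to 764 and 1042 to 1396 CPM. At day 12 they overlapped, with 1201 to 1695 and 702 to 1692 CPM, as they did at day 35, with 278 to 651 and 419 to 738 CPM. The part of these cell classes in Cdon was not tested.

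The upstream window of Cdon is shown because at each day the gene separated the cells treated with taurine and retinoic acid from the others of that day. Retinoic acid receptors bind pairs of half-sites, and the half-site AGGTCA was searched on both strands, a choice made after the values were seen. The variant GGGTCA was searched as well, as was the variant AGTTCA, and with them the variant GGTTCA. The 250 bases before the start listed by RefSeq, chr9:35451826-35452075 on the plus strand of GRCm38.p6 and inside the annotated gene, held 2 matches, in capitals. Such a match occurred in 38.6% of the 32851 promoters, and the matches say nothing of receptor binding.
Cdon: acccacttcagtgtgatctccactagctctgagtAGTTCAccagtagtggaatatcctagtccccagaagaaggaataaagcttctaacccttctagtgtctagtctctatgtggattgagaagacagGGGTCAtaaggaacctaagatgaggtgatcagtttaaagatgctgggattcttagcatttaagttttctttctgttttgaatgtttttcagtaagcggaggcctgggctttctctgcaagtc

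Gli1 (ENSMUSG00000025407, chromosome 10, 127329889 to 127341589, minus strand) encodes a Gli activator and is itself the standard transcriptional readout of the pathway. It had 0 to 12 counts per library. The protein-coding gene Arhgap9 overlaps it on the other strand. Rod primed cells had 2, 9 and 6 counts, cone primed cells 2, 11 and 2 and untreated cells 3, 3 and 5. Rod cells had 2, 0 and 0 counts at day 5, 0, 2 and 1 at day 12, 0, 0 and 2 at day 21 and 2, 0 and 0 at day 35. Cone cells had 8, 5 and 12 counts at day 5, 3, 1 and 2 at day 12, 0, 0 and 1 at day 21 and 2, 1 and 5 at day 35.

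By day 35 the rod level was 0.0844 times that of rod primed cells (2 against 17 counts, 95% counting interval 0.00946 to 0.356), which edgeR called (adjusted p 0.00887, or 0.0518 without rod primed replicate 2). In cone cells the day 35 ratio was 0.445 (8 against 15 counts, interval 0.164 to 1.12; adjusted p 0.299). At day 21 the cone ratio was 0.0607 (1 against 15 counts, interval 0.00144 to 0.394), a fall that edgeR called. That call was lost without cone primed replicate 2 (adjusted p 0.143) or cone day 21 replicate 2 (0.0520). At day 5 the ratio of cone to rod was 9.59 (25 against 2 counts, interval 2.39 to 83.5), with an adjusted p of 0.0649 by edgeR. Gli1 was not called by edgeR over the mean of days (adjusted p 0.178), though voom with quality weights called it (0.00859). Ptch1 and Hhip, the other readouts, had risen by day 35, when Gli1 had 0 to 5 counts per library.

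Gli2 (ENSMUSG00000048402, chromosome 1, 118834132 to 119053619, minus strand) encodes the main activator among the Gli proteins. Its level stayed between 6.44 and 35.6 CPM in all libraries. The highest values came from rod day 21 cells, with 18.4, 35.6 and 26.9 CPM, against 11.3, 15.4 and 14.2 CPM in cone cells of that day. These groups did not overlap, and the 1.97-fold difference had an adjusted p of 0.0387 by edgeR. It was lost in 5 of the 6 fits that left out 1 library (adjusted p 0.0617 to 0.207) and kept without rod day 21 replicate 1. Gli2, averaged over days 5 to 35, was 1.61-fold lower in cone cells (log2 fold change -0.69 ± 0.15, adjusted p 0.00100), a call kept in all 24 such fits. Against primed cells the day 35 values were -0.51 ± 0.30 in cone (adjusted p 0.153) and 0.09 ± 0.30 in rod cells (0.818). Its rod day 35 libraries, 20.8, 27.7 and 15.8 CPM, had the order of the mesenchyme marker sum, which the cone day 35 libraries, 16.3, 6.44 and 14.3 CPM, did not fully share.

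Gli3 (ENSMUSG00000021318, chromosome 13, 15463235 to 15730026, plus strand) encodes the main repressor form of the family. It first dipped in cone cells and then rose in both conditions. Cone primed cells had 65.1, 69.6 and 50.2 CPM, cone day 5 cells 42.2, 39.9 and 47.0 CPM and cone day 35 cells 107, 79.8 and 100 CPM. The day 5 fall was 1.43-fold (adjusted p 0.0356 by edgeR) and was kept in 1 of 6 fits that left out 1 library, the one without cone primed replicate 3. The others gave adjusted p between 0.0613 and 0.170. The rise to day 35 was 1.55-fold (0.00324) and was kept in all 6.

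In rod cells Gli3 went from 63.5, 61.9 and 74.9 CPM in primed cells to 107, 147 and 101 CPM at day 35, a 1.77-fold rise (adjusted p 0.000288 by edgeR). Averaged over days 5 to 35, cone cells were lower by 0.24 ± 0.09 (SE) on the log2 scale, a 1.18-fold difference with an adjusted p of 0.0415. Of the 24 fits that left out 1 library 11 kept that call. It was lost without cone day 5 replicate 2, cone day 12 replicate 1 or 2, cone day 21 replicate 1 or 3, cone day 35 replicate 2, rod day 5 replicate 1 or 2, rod day 12 replicate 1 or 3, rod day 21 replicate 2 or 3, or rod day 35 replicate 2, with adjusted p from 0.0527 to 0.0967. It was lost as well with RLE size factors (0.0536) and with no filter on low counts (0.0546).

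Counted over the 9 genes, edgeR called 1 in cone against rod cells at day 0, against 7.27% of all genes tested. The count was 1 at day 5 (9.28% of all genes), 1 at day 12 (10.1%), 3 at day 21 (9%) and 1 at day 35 (12.3%). Cdon was among them at each day, with Shh and Gli2 added at day 21. That count of 3 fell to 1 without rod day 21 replicate 3, and the day 35 count of 1 became 3 without rod day 35 replicate 2. The day 5 count became 2 without rod day 5 replicate 1, and the day 12 count became 2 without cone day 12 replicate 1 or rod day 12 replicate 2. For the mean of days 5 to 35, 6 of 9 were called, Boc higher and Gli2, Gli3, Ptch1, Hhip and Cdon lower in cone cells, against 27.8% of all genes. The median log2 fold change of the 9 was -0.24, beside 0.01 over all genes. For a change of the difference with day 0 of 9 were called by edgeR, against 9.22% of all genes, 3 had an unadjusted p under 0.05, and voom and DESeq2 called 5 and 1. Without rod day 12 replicate 1 or 2 the count by edgeR was 1.

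**Figure D3:**
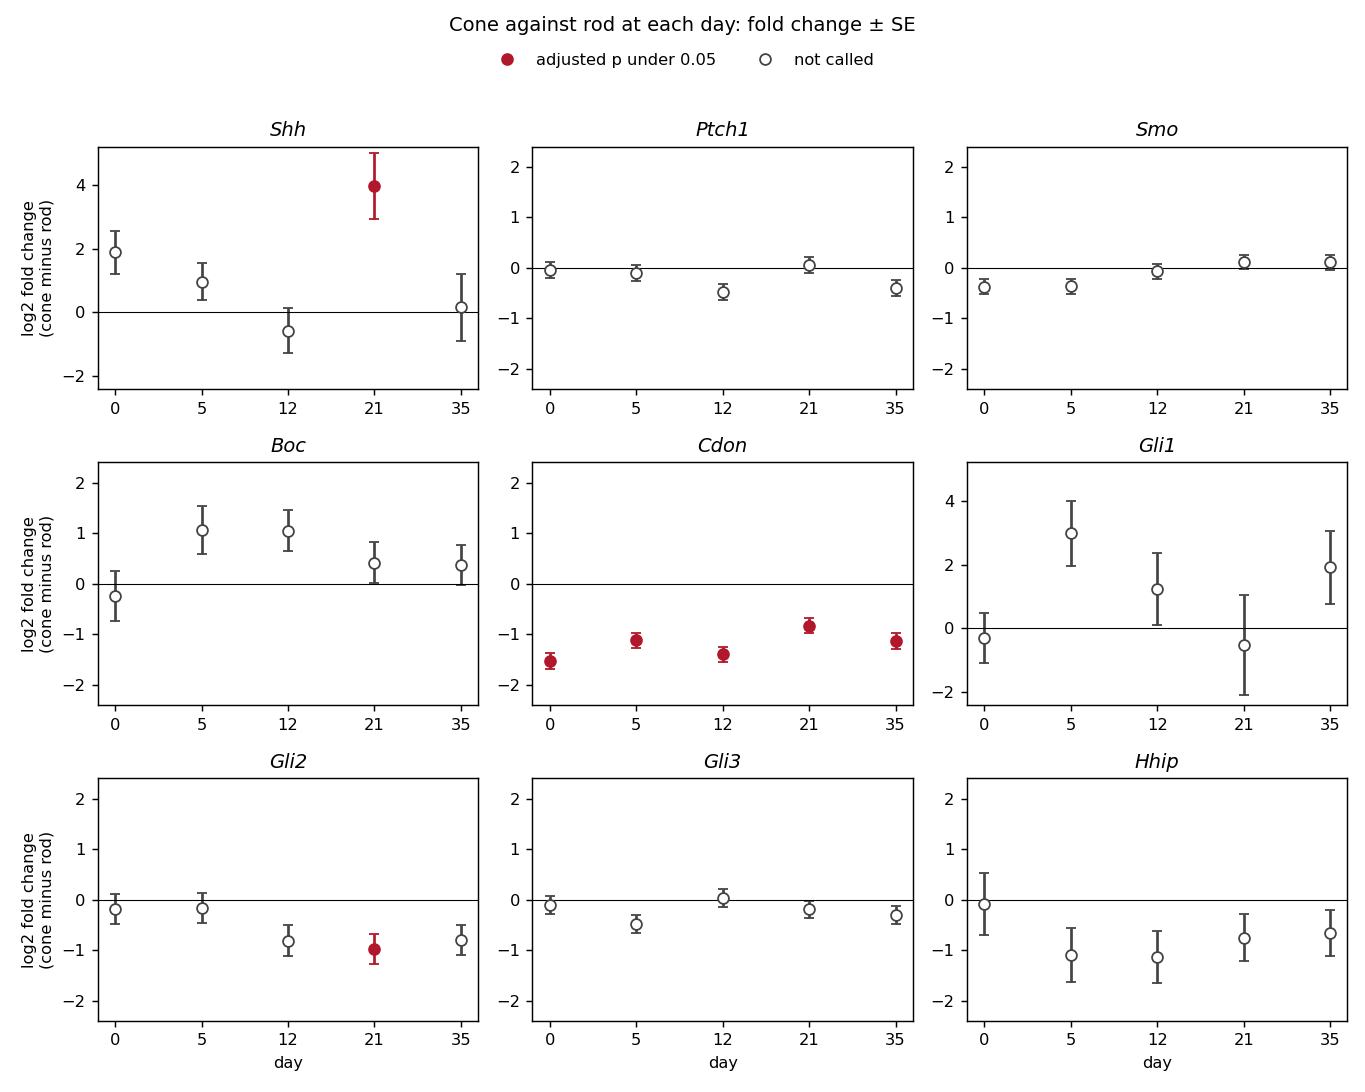
Log2 fold change of cone over rod cells (± SE, 3 libraries per group) at each day for the 9 genes, with filled points for an adjusted p under 0.05 by edgeR; the panels of Shh and Gli1 have a longer axis. Cdon lies below 0 and is filled at all 5 days, and Shh and Gli2 are filled at day 21 only.

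Priming alone changed few of them. Between cone primed and untreated cells 0 of 9 were called by edgeR, as were 0% of all genes, and 1 of the 9, Hhip, had an unadjusted p under 0.05. DESeq2 and voom called 0 as well. Between rod primed and untreated cells 2 of 9 were called, Cdon and Smo, both higher, against 10.3% of all genes. That count was 1 without untreated replicate 2 or rod primed replicate 3, when Smo was lost.

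Against the primed cells of their own condition, 3 of 9 were called in cone cells at day 5 (22.3% of all genes), 7 at day 12 (48.4%), 7 at day 21 (52.6%) and 7 at day 35 (57.7%). In rod cells the counts were 3 at day 5 (17.5% of all genes), 6 at day 12 (42.4%), 8 at day 21 (50.8%) and 6 at day 35 (55.6%). The comparisons of a condition share their primed libraries. At day 5 the cone count fell to 1 when cone primed replicate 2 was left out, and the rod count fell to 1 when rod primed replicate 2 was. At day 35 Gli3, Ptch1, Hhip, Boc and Cdon were called higher in each condition. Smo was called higher and Shh lower in cone cells, and Gli1 lower in rod cells. The medians of the 9 were 0.63 in cone and 0.82 in rod cells on the log2 scale, beside 0.03 and 0.04 over all genes.

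**Figure D4:**
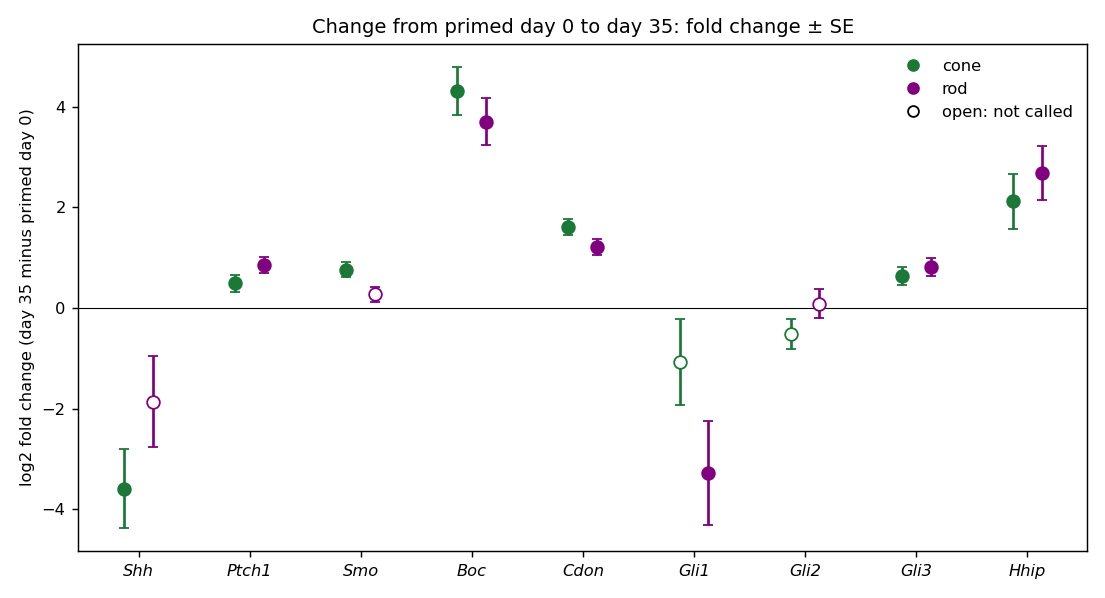
Log2 fold change (± SE) from primed day 0 to day 35 in cone and rod cells (3 libraries per group) for the 9 genes; filled points have an adjusted p under 0.05 by edgeR. Boc lies highest in both conditions, at 4.31 and 3.70, and Shh and Gli1 lie below 0 in both.

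The groups of each gene were ordered by mean level, and neighbours in that order were compared by their library ranges. For Cdon the order ran from untreated and cone primed cells (92.6 and 94.9 CPM) through cone day 12, cone day 5, rod primed, cone day 35 and cone day 21 cells to rod day 5, rod day 21, rod day 12 and rod day 35 cells (637 CPM). Neighbours lay apart without overlap at 3 of the 10 steps: from cone primed to cone day 12, from cone day 21 to rod day 5 and from rod day 5 to rod day 21. For Boc the steps from cone day 5 to rod day 12 and from rod day 12 to cone day 12 lay apart, and for Ptch1 and Smo 1 step each. For Shh, Gli1, Gli2, Gli3 and Hhip no neighbouring groups lay apart.

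The genes with the most similar course were found by Pearson's r of the mean log2 CPM over the 11 groups, among 11911 genes and without a test. The groups share day and condition, so many genes rank close together. Nearest to Cdon were Epas1 (0.977), which encodes a hypoxia-inducible transcription factor, Col9a1 (0.975) and Smtnl2 (0.973). Nearest to Boc were Zfp36l2 (0.996), Evc2 (0.996), a ciliary gene of the hedgehog pathway, and Fblim1 (0.995). For Ptch1 they included Pigl (0.972) and Arhgef26 (0.972), for Smo they were Nfatc3 (0.986), Mob1a (0.982) and Lman2 (0.974), and for Gli3 Hspa4 (0.970), Ror1 (0.968) and Snx24 (0.967). Hhip was nearest to Fbxo18 (0.952), Pisd (0.945) and Armcx6 (0.939), Gli2 to Gtf2i (0.921), Mmab (0.920) and Fam171a1 (0.873). Shh was nearest to Dbndd2 (0.970), Shtn1 (0.960) and Sez6l (0.960), and Gli1, mostly at the limit of detection, to Shmt2 (0.924), Sco1 (0.919) and Ccm2 (0.918).

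Of 44 other genes of the pathway, 41 were tested; Ihh, Foxl1 and Nkx2-2 did not pass the filter. In cone against rod cells edgeR called 6 of 41 at day 0, all of them lower. At day 5 it called 7, of which 2 were higher, and at day 12 it called 10, of which 8 were higher. At days 21 and 35 it called 4 each, 2 in either direction. For the mean of days the count was 16, with 10 higher. These shares can be read beside the percentages of all genes given above. The median over the mean of days was 0.12, beside 0.01 over all genes.

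Across the mean of days, when 27.8% of all genes were called, 3 of the 6 tested genes for other ligands and ligand release were called higher in cone cells. They were Dhh, the desert hedgehog ligand (2.30-fold, adjusted p 0.000498 by edgeR), Hhat, which attaches palmitate to the ligand, and Scube2, which helps to release it. Scube2 was called by edgeR at day 21 (7.32-fold, adjusted p 0.0275, 52 against 8 summed counts) and at day 35 (6.70-fold, 0.0202, 67 against 11). The rod means, 0.202 and 0.258 CPM, lay within the 0.174 to 0.407 CPM that 3 counts were worth, so the size of these folds is uncertain. Both calls were lost in 3 of the fits that left out 1 library, with adjusted p of up to 0.137 and 0.0986. Scube3, of the same family, was 3.93-fold lower in cone primed than in rod primed cells (1.56e-05) and 2.37-fold higher in cone cells at day 12 (0.00169, or 0.0828 in a model of the compared libraries alone).

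Of the 3 further receptors and co-receptors, Lrp2, a large endocytic receptor that binds the ligand, was higher in cone cells across the mean of days (1.64-fold, adjusted p 0.000741 by edgeR). Gas1 was not called. At day 12 Lrp2 was 2.27-fold higher (0.0111), a call lost without cone day 12 replicate 3, rod day 12 replicate 2 or 3 (0.0681 to 0.102) and in a model of these libraries alone (0.194).

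Among the 14 inhibitory regulators between Smo and Gli, 2 were called higher, among them Rab23, and 3 lower (Prkacb, Gsk3b and Sufu) in cone cells across the mean of days. Over all genes 27.8% were called in either direction. Gsk3b, a kinase that acts on Gli proteins in their processing, was 1.08-fold lower (adjusted p 0.0164 by edgeR, or 0.108 with no filter on low counts). Among single days, Rab23, a small GTPase of the cilium, was 1.49-fold higher at day 12 (0.00470, or 0.0684 and 0.0503 without cone day 12 replicate 3 or rod day 12 replicate 2, and 0.184 in a model of the compared libraries alone). Kif7, a kinesin at the tip of the cilium, was 1.80-fold lower at day 0 (0.0278, or up to 0.272 without rod primed replicate 3), and Prkacb, a protein kinase A subunit, 1.24-fold lower at day 35 (0.0479, or up to 0.164 without cone day 35 replicate 1).

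Of the 10 ciliary and promoting regulators, Kif3a, a motor subunit of transport in the cilium, was lower in cone cells at days 0, 5 and 12 by 2.15-fold, 2.08-fold and 1.63-fold (adjusted p 1.09e-05, 2.11e-05 and 0.00171 by edgeR, the last 0.176 in a model of the compared libraries alone). Across days 5 to 35 Kif3a was 1.49-fold lower (7.55e-07) and Evc2, which passes the signal of Smo on at the cilium base, 1.30-fold higher (0.0120). The other 8 were not called over the mean of days, when 27.8% of all genes were called.

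Of the 8 tested genes that are transcribed in response to the pathway in other tissues, 3 were called higher (Rab34, Sfrp1 and Prdm1) and 2 lower (Foxf1 and Bcl2) in cone cells across the mean of days. The share over all genes was 27.8%. Sfrp1, a secreted Wnt antagonist, was 4.25-fold higher (adjusted p 3.52e-10 by edgeR), and at days 5, 12, 21 and 35 it was 2.62-fold, 5.38-fold, 6.24-fold and 3.71-fold higher. The day 5 call (0.0132) was lost without cone day 5 replicate 1 (0.0889) or rod day 5 replicate 1 or 3 (0.0852 and 0.0514). Foxf1, a forkhead transcription factor gene, was 5.64-fold lower (7.80e-07), a size that rests on few cone counts (163 against 876 summed counts). It was called lower at day 5 as well. At days 12, 21 and 35 it was 4.54-fold, 5.22-fold and 3.39-fold lower. Summed counts at those days were 34, 48 and 75 in cone and 200, 324 and 289 in rod cells. The calls of days 12, 21 and 35 were each lost in at least 1 fit that left out a library (adjusted p of up to 0.107, 0.0767 and 0.126 over the alternatives). Bcl2 was 2.06-fold lower at day 5 (0.000124). At day 0 Ccnd2, a cyclin gene, was 17.9-fold lower in cone primed than in rod primed cells (4.27e-08), the largest fold of the named genes at that day. These genes thus went in both directions.

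From primed cells to day 35, edgeR called 32 of the 41 in cone cells (21 higher, 11 lower) and 29 in rod cells (19 higher, 10 lower), beside 57.7% and 55.6% of all genes. Evc2, Lrp2 and Gas1 rose in each condition. Lrp2 rose 48.5-fold in cone and 22.6-fold in rod cells (adjusted p 1.37e-12 and 5.96e-11), and Evc2 5.52-fold and 3.56-fold (1.91e-09 and 3.10e-07). Tulp3, which carries receptors into the cilium, rose 2.92-fold in cone cells (2.11e-09). Scube1 fell 6.07-fold in cone and 13.7-fold in rod cells (3.20e-06 and 2.28e-08), and Gsk3b 1.43-fold and 1.24-fold (7.43e-07 and 0.000792). Scube3 rose 2.60-fold in cone cells (6.75e-05) and Disp1, the exporter of the ligand, 1.85-fold in rod cells (0.000560). Tulp3 and Disp1 were called higher in both conditions, and Scube3 in cone cells only.

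The target list split in the same comparison. Ccnd2 rose 225-fold in cone cells (adjusted p 8.56e-14 by edgeR), from 187 to 48679 summed counts. Sfrp1 rose 10.8-fold in rod cells (1.52e-08). Mycn, a proto-oncogene of dividing progenitors, fell 47.3-fold in cone cells (6.29e-09), and Prdm1, a transcription factor gene of newly formed photoreceptors, 285-fold in rod cells (3.94e-09). Among the ciliary genes Stk36 fell 2.14-fold in cone cells (0.000562) and Kif3a 2.60-fold in rod cells (1.05e-08). Of the 8 tested targets, 6 were called higher and 2 lower in cone cells, and 5 higher and 2 lower in rod cells. Of all genes 57.7% and 55.6% were called in either direction. Each of these genes is given for 1 condition only, by the naming rule. Ccnd2 and Sfrp1 were called higher, and Mycn, Prdm1, Stk36 and Kif3a lower, in both conditions.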

How the data were processed

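Treatment and day, per the labels, define the 11 groups of the 33 libraries. Alignment and counting tools named in the submitters' processing notes are HISAT2, StringTie and HTSeq, with build GRCm38; versions and strand setting are not given in the sources used here. The authors deposited unnormalised read counts per gene, which were tested. Tables of TPM, FPKM and per-base coverage were deposited as well, per the file headers, and of these only TPM was used, as an alternative. Among genes with over 100 counts in a library, the deposited TPM was listed at 0 for 19.0% to 31.9%, so TPM values of single genes were not relied on. Summary rows that name no gene were left out, and genes received 26.9% to 34.9% of counted reads.

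Genes were filtered with filterByExpr (minimum count 10, by group), and 1 quasi-likelihood model of 11 groups was fitted to all libraries with edgeR 4.0.16 (TMM scaling, limma 3.58.1, R 4.3.3). P-values were adjusted by Benjamini-Hochberg over 18150 genes in each of 17 comparisons, and a gene was called at an adjusted p under 0.05. The steps were tested on simulated data. The 9 genes and all lists were chosen with earlier results of these data known. The 9 genes are always named. Of each pathway list the text names, with values, the called gene with the smallest adjusted p in each direction, in cone against rod cells and in day 35 against primed cells. Other genes are named to spell out a count, after their values were seen. Some genes that these rules name are not reported here. Likeness left out genes whose mean log2 CPM was under 1. Upstream sequences are RefSeq's for GRCm38.p6. Levels and plots were made with matplotlib 3.10.9, pandas 2.3.3, numpy 2.4.6 and scipy 1.17.1 under Python 3.11.15. Alternatives were RLE size factors, no filter, DESeq2 1.42.0, voom with quality weights, genes with a mean of at least 1 CPM, a replicate block, the compared libraries alone, limma on log2(TPM + 1) or log2(TPM + 0.1), and each library left out.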

Additional observations from a re-analysis of the deposited data

How the results depend on the processing

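Depth limits Shh, Gli1 and Hhip, whose calls rest on few counts, and the deposited TPM is listed at 0 for many counted genes, which the TPM alternatives below share. Among 123 fold changes recomputed, the alternatives on counts that kept all libraries reversed none. The count of the 9 genes called in cone against rod cells, 1 at day 0, became 3 with voom and 2 with the compared libraries alone. At day 5 it went from 1 to 4 and 2 under the same settings. At day 12 it went from 1 to 3 and 2, and to 2 with DESeq2, with the filter at a mean of 1 CPM and with the replicate block. At day 35 voom gave 2 against 1. For rod day 12 against rod primed cells the compared libraries alone gave 3 against 6. For the change with day voom gave 5 and DESeq2 gave 1 against 0. The cause was not tested. With TPM at a pseudocount of 1 and of 0.1 the counts were 0 for cone against rod at days 0, 5, 21 and 35, for rod primed against untreated and for rod days 21 and 35. They were 1 over the mean of days, for cone days 5 and 12 and for rod day 12, and 2 for cone days 21 and 35. At day 12 of cone against rod the pseudocount of 0.1 gave 0, and for rod day 5 the values were 1 and 0.

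With 1 library left out the counts in cone against rod cells ran from 1 to 1 at day 0, 1 to 2 at day 5, 1 to 2 at day 12, 1 to 2 at day 21, 1 to 3 at day 35, 4 to 7 over the mean of days and 0 to 1 for the change with day. They ran from 0 to 0 for cone primed and 1 to 2 for rod primed against untreated cells. They ran from 1 to 3, 5 to 6, 6 to 7 and 6 to 7 in cone cells at days 5, 12, 21 and 35, and from 1 to 3, 4 to 5, 6 to 7 and 5 to 7 in rod cells. Gli2 at rod day 35 against primed, 0.09, ranged from -0.14 without rod day 35 replicate 2 to 0.24 without rod day 35 replicate 3, and was -0.01 without rod primed replicate 2.

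Limma on the deposited TPM reversed these log2 fold changes, first with a pseudocount of 1 and then of 0.1. Over the mean of days they were Ptch1 (0.42 and 0.91), Hhip (0.04 and 0.18) and, at 1 only, Evc2 (-0.03). Against cone primed cells they were Gli3 at day 5 (0.22 and 0.95), Shh at day 12 (0.04 and 0.16), Hhip at day 21 (-0.09 and -0.56) and, at day 35, Smo (-0.12 and -0.24), Hhip (-0.01 and -0.06) and Scube3 (-0.26 and -0.31). Against rod primed cells they were Ptch1 at day 12 (-0.06 and -0.01), Shh at day 21 (0.07 and 0.43), Ptch1 at day 21 (-0.14 and -0.23), Disp1 (-0.22 and -0.81) and Gsk3b (0.30 and 0.40) at day 35. At day 35 Ptch1 (-0.05) reversed at 1 only and Shh (0.00) at 0.1 only, as did Hhip at day 21 (0.00). In cone against rod cells Bcl2 at day 5 (0.19 and 0.41) reversed, and Prkacb at day 35 at 1 only (0.03).

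Whether replicate numbers pair the samples is not settled by these values. Libraries of different groups with the same number had correlations of deviations from the group mean from -0.26 to 0.51, with a median of 0.02. Those with other numbers had -0.50 to 0.46, with a median of -0.01. Values over 0.1 were found in 48 of 165 and in 71 of 330 pairs. A median over all groups cannot exclude pairing between some of them. With the replicate block the counts were those of the fit without it in 15 of 17 comparisons. The exceptions were day 12 (2) and the mean of days, where Shh was added for 7.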
